A study of Mus musculus with 12 samples.

Results

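The genes that carry glucose into the cell, split it, export lactate and feed the pentose phosphate pathway were followed in bone-marrow pro-B cells, the early precursors in which antibody heavy-chain genes are assembled. The set held 40 genes, sorted by pathway step: 7 for transport and insulin signalling, 19 for glycolysis, 8 for lactate and pyruvate, 5 for the pentose phosphate pathway, and Hif1a. A gene was read from the transcript cluster (the array's probe set for a gene) that carries its symbol alone, and from the cluster with the highest mean where it had several. This gave 36 of the 40 genes a value, among 19938 genes named in this way on the array. Gpi1, Eno1, G6pdx and Gapdh had no cluster of their own and were not analysed here. The 12 Affymetrix Mouse Gene 1.0 ST arrays formed 3 groups of 4: wild type (WT), Pax5+/- and Cd72+/-;Pax5+/-. By the labels both mutant groups are heterozygous for Pax5 and the last also for Cd72, and how the alleles were made is not given in the labels. All mice were 1 month old and kept free of specific pathogens. The titles speak of pro-B cells for WT and of preleukemic precursor B-cells for either mutant genotype, while the tissue label is the same throughout. Values are log2 signals, so a difference of 1 is 2-fold.

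Glycolysis turns glucose into pyruvate. Hexokinase traps glucose in the cell as glucose 6-phosphate, phosphofructokinase commits it to the pathway, and pyruvate is then either reduced to lactate and exported or taken into the mitochondrion by pyruvate dehydrogenase. The pentose phosphate pathway branches off at glucose 6-phosphate and supplies NADPH and ribose for nucleotides. PAX5, a transcription factor on which B-lineage identity depends, is known from human pre-B leukemia cells to limit glucose uptake together with IKZF1, lowering genes such as the insulin receptor and glucose transporters and raising TXNIP, a brake on glucose uptake. CD72 is an inhibitory surface receptor of B cells. The comparisons asked how loss of 1 copy of Pax5 related to the level of these genes, and what differed where 1 copy of Cd72 was lost too.

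The promoters of 3 genes are shown because these genes fell in Pax5+/- and were higher again in Cd72+/-;Pax5+/-, and because RefSeq lists a single start for each. They are Slc2a1, which encodes the glucose transporter GLUT1, Pfkp, a phosphofructokinase, and Slc16a1, which encodes the lactate carrier MCT1. Pfkm, which followed the same course, has 4 listed starts and is not printed. Each window runs from 250 bases before to 50 bases after the start in RefSeq's mouse assembly GRCm38.p6. Slc2a1 lies at chr4:119108495-119108794 on the plus strand, Pfkp at chr13:6648722-6649021 on the minus strand and Slc16a1 at chr3:104638414-104638713 on the plus strand. Capitals mark the core of the hypoxia response element, ACGTG or GCGTG read on either strand, and in Slc16a1 also the E-box CACGTG, which contains a core on each strand.
Slc2a1: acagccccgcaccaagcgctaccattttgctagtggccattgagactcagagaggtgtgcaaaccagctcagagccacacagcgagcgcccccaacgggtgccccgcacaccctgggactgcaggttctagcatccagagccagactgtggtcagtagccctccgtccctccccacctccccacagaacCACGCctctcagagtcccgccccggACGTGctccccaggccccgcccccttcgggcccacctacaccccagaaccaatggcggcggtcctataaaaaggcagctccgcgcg
Pfkp: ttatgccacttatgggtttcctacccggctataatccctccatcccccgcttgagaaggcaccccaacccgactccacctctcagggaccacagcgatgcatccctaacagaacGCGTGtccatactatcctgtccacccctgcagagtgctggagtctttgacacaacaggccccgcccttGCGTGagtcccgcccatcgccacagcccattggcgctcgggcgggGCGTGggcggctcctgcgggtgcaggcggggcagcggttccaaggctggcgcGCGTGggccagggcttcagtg
Slc16a1: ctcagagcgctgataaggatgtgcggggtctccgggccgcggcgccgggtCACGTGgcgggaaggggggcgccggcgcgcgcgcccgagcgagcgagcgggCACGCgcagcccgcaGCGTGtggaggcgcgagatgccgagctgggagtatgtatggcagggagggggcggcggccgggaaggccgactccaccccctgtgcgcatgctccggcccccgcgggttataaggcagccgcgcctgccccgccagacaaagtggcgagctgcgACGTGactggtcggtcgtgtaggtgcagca
These windows held 2 cores in Slc2a1, 4 in Pfkp and 5 in Slc16a1. Such a core was found in 43.8% of all 32851 promoter windows and in 43 of the 53 windows of member genes (81.1%). By gene, 35 of the 38 listed members had it in at least 1 window, against 46.7% of all 27025 genes. Insr and Slc2a3 had no listed promoter window. The E-box was found in 7.15% of all windows and in 8 of the 53 (15.1%). The member windows were also richer in G and C, with a median of 61.0% against 52.7% over all windows. A match of letters is a description and says nothing of binding.

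Before the results, 3 properties of the arrays bear on all of them. In each group the arrays were put into the pairs that differed least in sum, so every group has close pairs by construction. The pairs stood clearly apart in WT. There arrays 1 and 3 and arrays 2 and 4 differed by an SD of 0.113 and 0.123 over all clusters, while the other WT pairs differed by 0.261 to 0.27. The same numbers paired in Pax5+/- (0.179 and 0.13, others 0.192 to 0.276), and arrays 1 and 2 and arrays 3 and 4 in Cd72+/-;Pax5+/- (0.125 and 0.128, others 0.132 to 0.187). In both mutants the closest other pair was thus nearly as close as a chosen one. Nothing in the labels ties arrays to separate mice. All p-values here therefore reflect the variation among these arrays alone, which may be technical. Pax5 was lower in both mutants than in WT, and Cd72 was lowest in Cd72+/-;Pax5+/- and highest in Pax5+/-. Pax5 read 11.40 to 11.72 in WT, 10.65 to 11.21 in Pax5+/- and 11.11 to 11.31 in Cd72+/-;Pax5+/-, and Cd72 read 8.43 to 9.39, 10.03 to 10.27 and 7.34 to 7.67. Xist, expressed from the inactive X chromosome of females, read 11.75 to 11.9 on all Cd72+/-;Pax5+/- arrays and at most 5.52 elsewhere, and the Y-linked Uty did the opposite. A difference that involves Cd72+/-;Pax5+/- therefore cannot be told apart from one of sex.

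Pro-B markers differed between and within groups. The mean of 11 pro-B markers was 11.63 to 11.75 on the Pax5+/- arrays and 11.34 to 11.52 on the Cd72+/-;Pax5+/- arrays. In WT it was 11.87 and 11.89 on arrays 1 and 3 but 10.98 and 10.95 on arrays 2 and 4. By limma (adjusted p under 0.05), 3 of the 11 were called in Pax5+/- against WT (27.3%), 2 in the double mutant against WT (18.2%) and 3 between the mutants (27.3%). Of all clusters 7.47%, 7.78% and 9.79% were called. Dntt, the terminal transferase of early B-cell precursors, changed by -2.34 in the double mutant against WT and by -2.12 against Pax5+/-. It read 11.93, 9.76, 11.92 and 9.82 in WT and ran against most of the list. In the double mutant, 9 of the 11 markers were above WT and 2 below (median change 0.25). Between the mutants 4 were higher and 7 lower (median -0.06), so Dntt weighs heavily in the list mean. Cd93, an early B-lineage surface marker, changed by 1.27 in Pax5+/- against WT and -0.85 between the mutants. The part of these differences in the metabolic genes was not tested. The mean of 8 stromal markers, which bone-marrow support cells express, was 8.27 on WT arrays 1 and 3 and 7.68 and 7.67 on arrays 2 and 4. In Pax5+/- it was 8.28 and 8.36 on arrays 1 and 3 and 7.21 and 7.28 on arrays 2 and 4, and in Cd72+/-;Pax5+/- 6.9 to 7.15. The collagen gene Col1a1 reached 10.51 on a Pax5+/- array, whereas Lepr, a defining marker of marrow stroma, stayed at 4.76 to 4.87 on all arrays. Markers of endothelium, granulocytes, monocytes, red cells and T cells averaged 5.67 to 6.61 on every array, with 0 of these 28 genes called by limma in any comparison and 1, 0 and 2 at an unadjusted p under 0.05 in the order Pax5+/- to WT, double mutant to WT, double mutant to Pax5+/-. Among these, Lyz2, a lysozyme of myeloid cells, read 8.75, 7.17, 8.94 and 7.23 in WT, 7.24 to 7.80 in Pax5+/- and 8.16 to 8.80 in Cd72+/-;Pax5+/-. Its WT arrays thus split by the same pairs and the mutants did not overlap (change 0.85, limma adjusted p 0.184), while the monocyte genes Csf1r and Adgre1 read 6.49 to 6.67 and 5.11 to 5.27 over all arrays. Of the stromal genes 0, 2 (Sparc and Cxcl12, lower) and 1 (Cxcl12, lower) of 8 were called in that order, with 0, 6 and 4 at an unadjusted p under 0.05. In such bulk RNA, fewer cells of a type and less RNA per cell cannot be told apart.

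Pax5+/- cells had more Insr and Eno3 and less of the transporters and rate-setting enzymes Slc2a1, Pfkm, Pfkp, Pfkfb3 and Slc16a1 than WT cells. By limma (Benjamini-Hochberg adjusted p under 0.05, over all 23410 clusters with a symbol), 7 of the 36 genes were called, 2 higher and 5 lower, or 19.4%. Over all clusters 7.47% were called, 4.28% higher and 3.2% lower. The calls of Slc2a1, Pfkfb3 and Eno3 were kept in only 2, 3 and 5 of the 12 fits without 1 array. None of the 7 calls was kept with the close pairs averaged. The median change of the 36 genes was -0.06, against -0.005 for all clusters. In Cd72+/-;Pax5+/- against WT, 5 genes were called, 2 higher (Insr, Pfkp) and 3 lower (Aldoc, Pdk1, Hif1a), or 13.9%, where 7.78% of all clusters were called, 4.12% higher and 3.66% lower. In Cd72+/-;Pax5+/- against Pax5+/-, 11 genes were called, 4 higher (Slc2a1, Pfkm, Pfkp, Slc16a1) and 7 lower (Slc2a6, Insr, Aldoc, Eno3, Pdk2, Pdha1, Hif1a), or 30.6%, where 9.79% of all clusters were called, 4.44% higher and 5.35% lower. The median change was -0.01 in the former and 0.08 in the latter, against 0.002 and 0.005 for all clusters. These comparisons share arrays, so a gene that is high or low in 1 group appears in 2 of them.

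The groups did not overlap in 9 of the 36 genes for Pax5+/- against WT, 8 for Cd72+/-;Pax5+/- against WT and 20 for Cd72+/-;Pax5+/- against Pax5+/-, where 10.7%, 14.8% and 18.5% of all clusters did not. An exact permutation test of 4 arrays against 4 cannot give a p under 0.0286. At the study's own threshold, taken as an unadjusted p under 0.05 with a change over 2-fold, limma called 1 gene (Insr) in the first comparison and 0 in the other two, against 0.957%, 0.914% and 1.20% of all clusters. Without the fold limit, 14, 10 and 19 genes had an unadjusted p under 0.05. The share of all clusters at that level was not counted, so no list's number at an unadjusted p can be set against it. With each close pair averaged to 1 value, 0, 0 and 1 of the 36 genes were called, the 1 being Pfkp. Of all clusters, 1.20%, 1.24% and 1.79% were called. An unadjusted p under 0.05 was held by 7, 5 and 9 of the 36, again without a share over all clusters. So with averaged pairs every call among the 36 genes but that of Pfkp between the mutants was lost. With the pairs as a random block, 4, 2 and 6 genes were called, where 4.84%, 4.4% and 5.97% of all clusters were. Leaving out 1 array gave 4 (without WT array 2 or 4, Pax5+/- array 4 or Cd72+/-;Pax5+/- array 3) to 11 (without WT array 1) calls in the first comparison. In the second it gave 1 without Cd72+/-;Pax5+/- array 1, 2 without its array 3, and 3 without its array 4 or WT array 1 or 3. In the third it gave 6 without Cd72+/-;Pax5+/- array 1 or 4, and 7 without its array 2 or 3 or Pax5+/- array 4. The share of all clusters moved too, over 5.72% to 8.37%, 5.37% to 8.77% and 7.12% to 10.5% in the 3 comparisons.

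**Figure D1:**
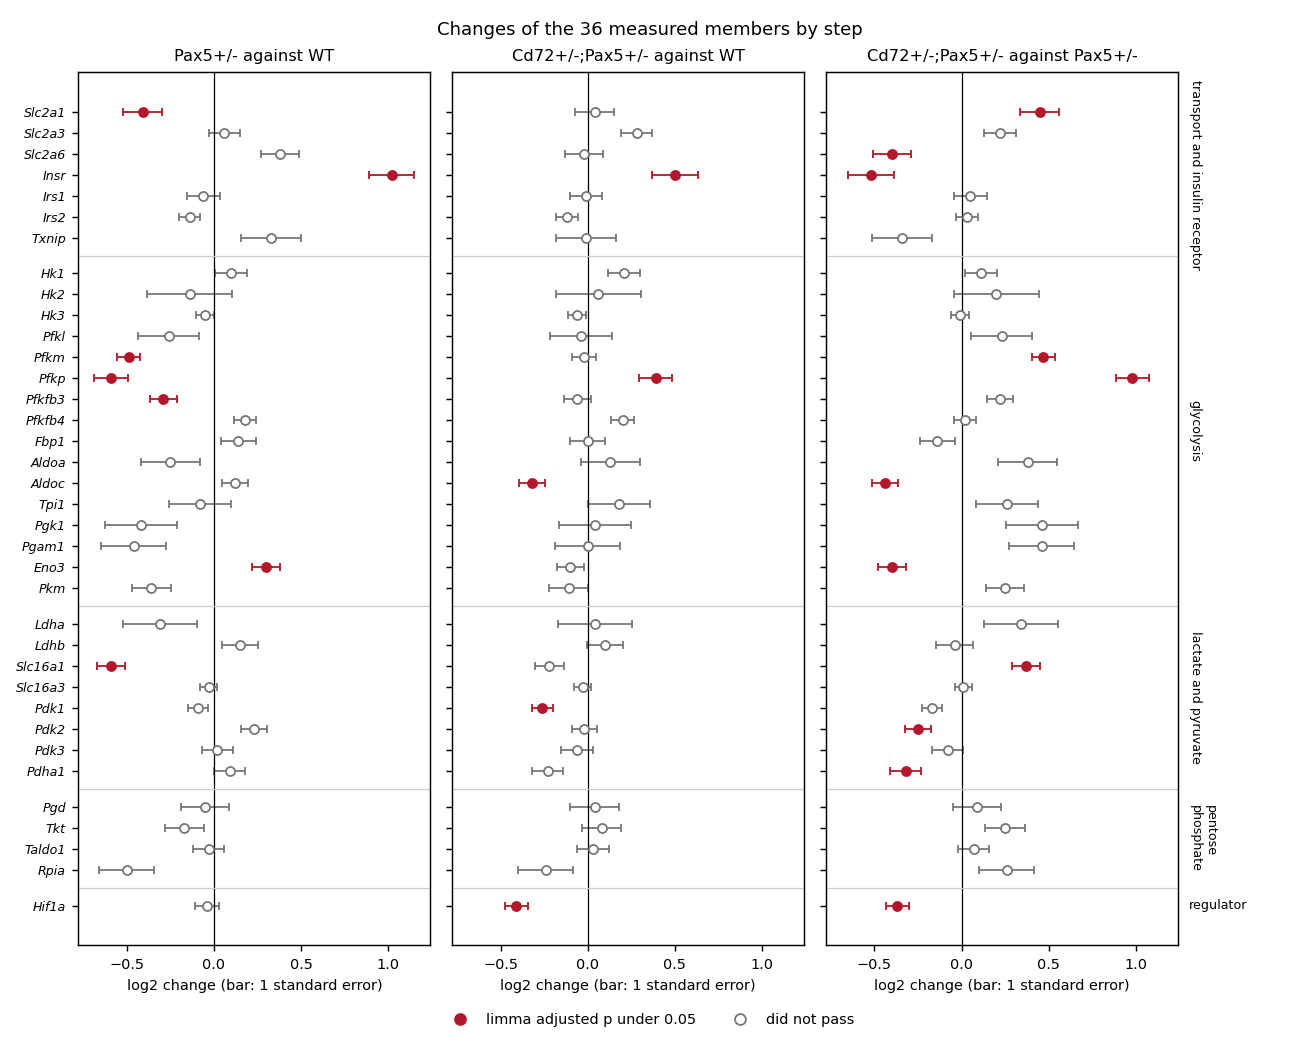
Log2 change of each of the 36 genes (x axis, with 1 standard error) in the 3 comparisons (panels), ordered by pathway step (y axis); filled points passed limma's adjusted p of 0.05. Insr had the highest change in Pax5+/- against WT (1.02) and Pfkp in Cd72+/-;Pax5+/- against Pax5+/- (0.98), and no pentose phosphate gene passed.

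Insr, the insulin receptor, differed most in Pax5+/-. Its signal on WT arrays 1 to 4 was 8.28, 7.63, 8.05 and 7.84. It was 8.87, 9.24, 8.72 and 9.04 in Pax5+/- and 8.41, 8.43, 8.53 and 8.42 in Cd72+/-;Pax5+/-. All Pax5+/- arrays lay above all others and all WT arrays below all others, so the double mutant took the middle place. The gene was 2.02-fold higher in Pax5+/- than in WT (log2 change 1.02, SE 0.131, limma adjusted p 0.000259), and this call was kept without any 1 of the 12 arrays. It was 0.50 higher in Cd72+/-;Pax5+/- than in WT (SE 0.131, limma adjusted p 0.0364) and 0.52 lower than in Pax5+/- (limma adjusted p 0.0241). These last calls were fragile: the former was lost without WT array 2, 3 or 4 or any Cd72+/-;Pax5+/- array (limma adjusted p up to 0.102). The latter was lost without Pax5+/- array 2 or 4 or Cd72+/-;Pax5+/- array 1, 2 or 4 (up to 0.0668). A further Insr cluster gave changes of 0.81, 0.46 and -0.35, with limma adjusted p of 0.000352, 0.0207 and 0.0597. The adaptors that pass on the insulin signal, Irs1 and Irs2, were not called in any comparison, with changes between -0.14 and 0.05.

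The glucose transporters did not move together. Slc2a1, the main carrier of dividing cells, read 9.46, 9.90, 9.40 and 9.99 on the WT arrays. It read 9.30, 9.30, 9.28 and 9.23 in Pax5+/- and 9.76, 9.69, 9.75 and 9.72 in Cd72+/-;Pax5+/-. All Pax5+/- arrays were below all others, and the double mutant lay inside the wide WT range. The Pax5+/- change was -0.41 against WT (SE 0.112, limma adjusted p 0.0431). It was called without WT array 1 or WT array 3 and lost without any other single array (up to 0.13). With arrays 2 and 4 of WT and Pax5+/- left out, the change was -0.14 (limma adjusted p 0.25). Cd72+/-;Pax5+/- was 0.45 above Pax5+/- (SE 0.112, limma adjusted p 0.0216), a call lost without Pax5+/- array 3 or 4 or Cd72+/-;Pax5+/- array 1, 3 or 4 (up to 0.0592).

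Slc2a6, a transporter of lysosomal membranes, ran the other way. It read 8.77, 8.42, 8.66 and 8.30 in WT, 8.82, 9.05, 8.69 and 9.10 in Pax5+/-, and 8.59, 8.51, 8.45 and 8.52 in Cd72+/-;Pax5+/-. The mutant groups did not overlap, while the WT arrays reached into both. The double mutant was lower than Pax5+/- (change -0.40, SE 0.109, limma adjusted p 0.0362), and the 0.38 between Pax5+/- and WT did not pass (limma adjusted p 0.0565). The former call was lost without Pax5+/- array 2 or 4 or any Cd72+/-;Pax5+/- array (up to 0.1). Slc2a3, which encodes the high-affinity transporter GLUT3, was 0.28 higher in Cd72+/-;Pax5+/- than in WT and did not pass (SE 0.0904, limma adjusted p 0.0844). Txnip read 9.79, 8.94, 9.75 and 8.98 in WT, 9.59 to 9.82 in Pax5+/- and 9.30 to 9.39 in Cd72+/-;Pax5+/-. Its changes of 0.33, -0.01 and -0.34 did not pass (limma adjusted p 0.359, 0.984 and 0.274). Its WT arrays lay on both sides of the double mutant. In the human cells named above, PAX5 lowers the insulin receptor and glucose transporters and raises TXNIP. Here, with 1 copy of Pax5 lost, Insr was higher than in WT, Slc2a1 was lower and Txnip was not called.

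**Figure D2:**
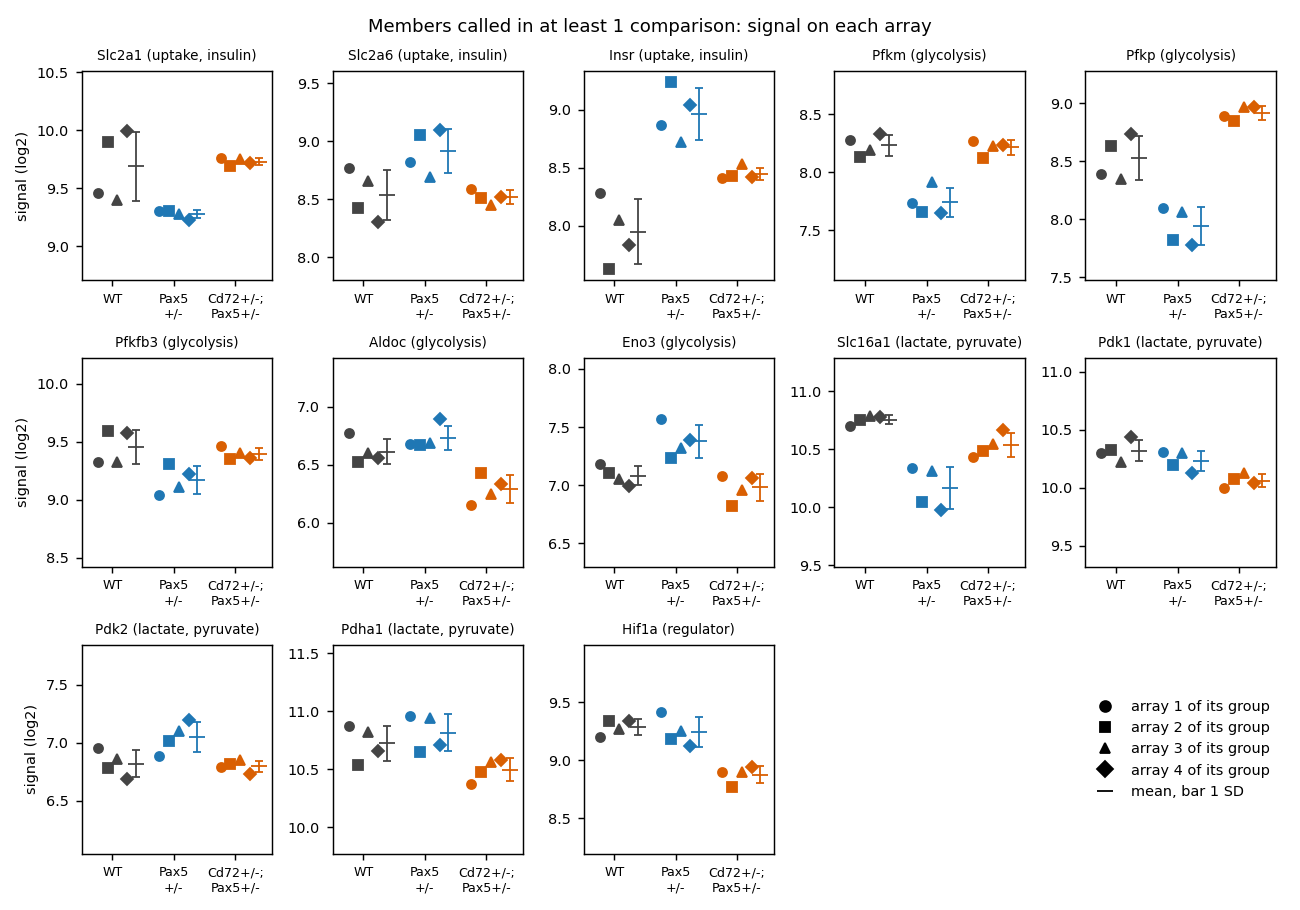
Signal (y axis, log2) on each array of the 13 genes called in at least 1 comparison, by group (x axis); symbols give the array's number in its group and the bar beside them the mean and 1 SD of 4 arrays. Insr steps from WT through Cd72+/-;Pax5+/- up to Pax5+/-, Pfkp has its lowest arrays in Pax5+/- (7.78 to 8.10) and its highest in Cd72+/-;Pax5+/- (8.85 to 8.97), and Hif1a is low in Cd72+/-;Pax5+/- alone (8.77 to 8.94).

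Of the 16 measured glycolysis genes, those at the phosphofructokinase step held the largest called changes. Pfkp, the platelet-type subunit, read 8.39, 8.63, 8.35 and 8.74 on the WT arrays. It read 8.10, 7.82, 8.06 and 7.78 in Pax5+/- and 8.89, 8.85, 8.97 and 8.97 in Cd72+/-;Pax5+/-. The 3 groups did not overlap, with Pax5+/- lowest and the double mutant highest. Pax5+/- differed from WT by -0.59 (SE 0.0958, limma adjusted p 0.00167) and 0.98 between the mutants, or 1.97-fold (SE 0.0958, limma adjusted p 1.98e-05). Both calls held without any 1 array, and the latter also with the close pairs averaged (limma adjusted p 0.0482). The 0.39 of Cd72+/-;Pax5+/- over WT passed (limma adjusted p 0.0245) but was lost without WT array 1 or 3 or Cd72+/-;Pax5+/- array 1, 3 or 4 (up to 0.0738).

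Pfkm, the muscle-type subunit, shared the Pax5+/- part of this course. Its values were 8.28, 8.13, 8.19 and 8.33 in WT, 7.74, 7.66, 7.92 and 7.65 in Pax5+/-, and 8.27, 8.12, 8.23 and 8.24 in Cd72+/-;Pax5+/-. All Pax5+/- arrays were below all others, and the other two groups overlapped. The change was -0.49 against WT (SE 0.0676, limma adjusted p 0.000462) and 0.47 for Cd72+/-;Pax5+/- over Pax5+/- (limma adjusted p 0.000506), and both were called without any 1 array. Pfkl, the liver-type subunit, was not called, with changes of -0.26, -0.04 and 0.23 in the order of the comparisons above (SE 0.177). Pfkfb3 makes the activator of phosphofructokinase. It read 9.33, 9.59, 9.33 and 9.58 in WT, 9.04, 9.31, 9.11 and 9.22 in Pax5+/-, and 9.46, 9.35, 9.40 and 9.36 in Cd72+/-;Pax5+/-. Each Pax5+/- array lay below every array of the other groups. Its change of -0.29 against WT (SE 0.0765, limma adjusted p 0.0383) was called without WT array 1, WT array 3 or Pax5+/- array 2, and lost without any other single array (up to 0.119). The 0.22 between the mutants did not pass (limma adjusted p 0.0949).

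Further down the pathway, a pair of tissue-restricted isoforms, Aldoc and Eno3, differed between the mutants. Both had low signal: Aldoc lay below the median of every array (6.91 to 7.005), and Eno3 lay around it. Aldoc, the brain-type aldolase, read 6.77, 6.52, 6.60 and 6.56 in WT, 6.68, 6.67, 6.69 and 6.89 in Pax5+/-, and 6.15, 6.43, 6.25 and 6.33 in Cd72+/-;Pax5+/-. All double-mutant arrays were below all others. The change was -0.44 against Pax5+/- (SE 0.0756, limma adjusted p 0.00199), kept without any 1 array, and -0.32 against WT (limma adjusted p 0.0198). The latter was lost without WT array 1 or Cd72+/-;Pax5+/- array 1 or 3 (up to 0.0644). Eno3, the muscle-type enolase, read 7.18, 7.10, 7.05 and 6.99 in WT, 7.57, 7.23, 7.32 and 7.39 in Pax5+/-, and 7.08, 6.82, 6.96 and 7.06 in Cd72+/-;Pax5+/-. The Pax5+/- arrays were above all others. Its 0.30 over WT passed (limma adjusted p 0.0376) but was lost without WT array 2, 3 or 4, Pax5+/- array 1, 3 or 4, or Cd72+/-;Pax5+/- array 3 (up to 0.111). The change of -0.40 between the mutants (limma adjusted p 0.00571) held without any 1 array.

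The ubiquitous enzymes of the lower pathway, Aldoa, Tpi1, Pgk1, Pgam1 and Pkm, were not called in any comparison. In Pax5+/- against WT their changes were -0.25, -0.08, -0.42, -0.46 and -0.36, with standard errors of 0.111 to 0.207, and in Cd72+/-;Pax5+/- against Pax5+/- they were 0.38, 0.26, 0.46, 0.46 and 0.25. The clusters of Pgk1, Pgam1 and Pkm may take up signal of near-identical copies: some clusters of Pgk1 and of Pgam1 hold identical values, and Pkm's leading cluster lists no RefSeq mRNA. Pfkfb4, Hk3 and Fbp1, the last an enzyme of the reverse pathway, changed by at most 0.20 in size and were not called.

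Hk1, the housekeeping hexokinase, depends on the cluster read. The highest cluster, which lists no RefSeq mRNA, gave changes of 0.10, 0.21 and 0.11 and was not called. The cluster that lists 2 RefSeq mRNAs read 9.17, 8.92, 9.16 and 9.05 in WT, 9.12, 9.56, 9.24 and 9.55 in Pax5+/-, and 8.81, 8.71, 8.82 and 8.71 in Cd72+/-;Pax5+/-. On it the double mutant was below all other arrays and the change from Pax5+/- was -0.60 (SE 0.0964, limma adjusted p 0.00119). This cluster was chosen after its values were seen.

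In the lactate and pyruvate step, Slc16a1 had the largest change in both comparisons that involve Pax5+/-, in size. It read 10.70, 10.75, 10.79 and 10.78 in WT, 10.34, 10.05, 10.31 and 9.98 in Pax5+/-, and 10.43, 10.49, 10.55 and 10.67 in Cd72+/-;Pax5+/-. The 3 groups did not overlap, with WT highest and Pax5+/- lowest. The change in Pax5+/- was -0.59 against WT (SE 0.0817, limma adjusted p 0.000505), and Cd72+/-;Pax5+/- was 0.37 above Pax5+/- (limma adjusted p 0.0123). Both calls were kept without any 1 array, but the latter was lost with arrays 2 and 4 of WT and Pax5+/- left out (0.21, limma adjusted p 0.0686). The -0.22 of the double mutant against WT did not pass (limma adjusted p 0.143). Slc16a3, the other lactate carrier of the set, changed by at most 0.03 in size and was not called, nor were the lactate dehydrogenase genes Ldha and Ldhb.

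The switch that sends pyruvate into the mitochondrion showed smaller called differences, each with lower signal in the double mutant. Pdk1, a kinase that shuts pyruvate dehydrogenase off, read 10.30, 10.33, 10.22 and 10.44 in WT, 10.31, 10.20, 10.30 and 10.13 in Pax5+/-, and 10.00, 10.08, 10.13 and 10.04 in Cd72+/-;Pax5+/-. The double mutant was below all WT arrays (change -0.26, SE 0.0587, limma adjusted p 0.016), a call lost without Cd72+/-;Pax5+/- array 1 (0.054). Pdk2, a related kinase, read 6.96, 6.78, 6.86 and 6.69 in WT, 6.89, 7.02, 7.10 and 7.20 in Pax5+/-, and 6.79, 6.82, 6.85 and 6.73 in Cd72+/-;Pax5+/-. This is low signal, around the array medians (6.91 to 7.005). The mutant groups did not overlap (change -0.25, SE 0.072, limma adjusted p 0.0426), but the call was kept only without WT array 1, WT array 4 or Pax5+/- array 1, and reached 0.115 otherwise. Pdha1, the catalytic subunit of the enzyme itself, read 10.87, 10.54, 10.82 and 10.66 in WT, 10.96, 10.65, 10.94 and 10.71 in Pax5+/-, and 10.37, 10.48, 10.56 and 10.58 in Cd72+/-;Pax5+/-. The mutant groups again did not overlap (change -0.32, SE 0.09, limma adjusted p 0.0436). This call was lost without Pax5+/- array 1 or 3, WT array 4 or any Cd72+/-;Pax5+/- array (up to 0.126). Pdha1 lies on the X chromosome, as do Pgk1 and Pdk3, and the double mutant is the group with Xist signal.

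Hif1a encodes the oxygen-regulated factor that raises many glycolysis genes in low oxygen. It read 9.20, 9.34, 9.27 and 9.34 in WT, 9.42, 9.18, 9.25 and 9.12 in Pax5+/-, and 8.90, 8.77, 8.90 and 8.94 in Cd72+/-;Pax5+/-. All double-mutant arrays were below all others, and WT and Pax5+/- overlapped. The change was -0.41 against WT (SE 0.0666, limma adjusted p 0.00169) and -0.37 against Pax5+/- (limma adjusted p 0.00323), and both were kept without any 1 array. Protein and its stability, the main level at which this factor is controlled, were not measured.

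Of the 4 measured pentose phosphate genes, 0 were called by limma in any comparison, and 1, 0 and 1 had an unadjusted p under 0.05. Pgd, the enzyme that yields NADPH and ribulose 5-phosphate, changed by -0.05, 0.04 and 0.09, and Taldo1, a transaldolase, by -0.03, 0.03 and 0.07. Tkt, a transketolase, changed by -0.17, 0.08 and 0.25. Rpia, which makes ribose 5-phosphate, read 9.53, 10.19, 9.60 and 10.37 in WT, 9.31, 9.37, 9.52 and 9.50 in Pax5+/-, and 9.79, 9.59, 9.72 and 9.63 in Cd72+/-;Pax5+/-. The Pax5+/- arrays were below all others, by a narrow margin to WT arrays 1 and 3, and the change of -0.50 did not pass (SE 0.158, limma adjusted p 0.0871).

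Inside WT and Pax5+/-, many of the 36 genes split by the close pairs, and the split was not confined to a single step. In WT, arrays 2 and 4 were both above arrays 1 and 3 in 19 of the 36 genes and both below in 8, where over all clusters 24.4% were above and 31.6% below. The 19 held 9 of 16 glycolysis genes, 3 of 4 pentose phosphate genes, 3 of 8 lactate and pyruvate genes, 3 of 7 transport and insulin genes, and Hif1a. The 8 below held 4 transport and insulin genes, 2 glycolysis genes and 2 lactate and pyruvate genes. Hk2, the inducible hexokinase, read 8.21 and 8.20 on WT arrays 1 and 3 but 9.32 and 9.46 on arrays 2 and 4. Its Pax5+/- arrays (8.57 to 8.74) and Cd72+/-;Pax5+/- arrays (8.83 to 8.92) all fell into that gap. Pgam1, phosphoglycerate mutase, read 10.68, 11.57, 10.71 and 11.48 on the WT arrays in order. In 10 of the 36 genes the WT pairs differed by over 0.5, where 6.7% of all clusters did.

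In Pax5+/- the pairs ran the other way, with arrays 1 and 3 both above arrays 2 and 4 in 18 of the 36 genes and both below in 6 (23.7% and 23.4% of all clusters). These 18 were 9 of 16 glycolysis genes, 4 of 8 lactate and pyruvate genes, 2 of 4 pentose phosphate genes, 2 of 7 transport and insulin genes, and Hif1a. Ldha, the main lactate dehydrogenase subunit of proliferating cells, read 11.69, 10.92, 11.36 and 10.60 in Pax5+/-, against 11.13, 11.82, 11.22 and 11.62 in WT and 11.33, 11.45, 11.48 and 11.67 in Cd72+/-;Pax5+/-. Pgk1 read 11.10, 10.04, 10.39 and 9.98 in Pax5+/-. In 4 of the 36 genes the Pax5+/- pairs differed by over 0.5 (3.48% of clusters). In Cd72+/-;Pax5+/- no gene's pairs did (0 of 36, 0.145% of clusters). WT arrays 2 and 4 were also those with lower pro-B and stromal marker means. Pax5+/- arrays 2 and 4 had lower stromal means alone. The mean of 20 further regulators, taken up below, was 8.8 and 8.85 on WT arrays 2 and 4 and 8.6 on arrays 1 and 3. Among these regulators, Myc read 10.10, 11.86, 10.12 and 11.83 in WT. The part of these differences in the metabolic genes was not tested.

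The sign of many changes in Pax5+/- depended on which arrays were read. With arrays 1 and 3 of both groups left out, 23 of the 36 genes were called, 6 higher and 17 lower, with a median change of -0.19, where 22.9% of all clusters were called. With arrays 2 and 4 left out, 9 were called, 5 higher and 4 lower, with a median of 0.07 (7.42% of clusters). Each of these fits keeps 1 close pair of WT, 1 of Pax5+/- and all 4 Cd72+/-;Pax5+/- arrays. The spread within WT and within Pax5+/- is therefore small by construction. In 16 of the 36 genes the 2 fits gave opposite signs. In some both changes were small, as in Slc16a3 (0.04 on arrays 2 and 4, -0.1 on arrays 1 and 3). The share of all clusters with opposite signs, called or not, was not counted, so these genes cannot be set against others. Hk2 changed by -0.80 on arrays 2 and 4 and by 0.51 on arrays 1 and 3, Tpi1 by -0.66 and 0.51, and Pgd by -0.42 and 0.33, and these 3 were called in both fits with opposite signs. Insr (1.40 and 0.63), Pfkm (-0.57 and -0.40), Pfkp (-0.88 and -0.29), Pfkfb3 (-0.32 and -0.25) and Slc16a1 (-0.75 and -0.42) were called with the same sign in both. Slc2a1 kept its sign but was called on arrays 2 and 4 alone (-0.68, against -0.14 on arrays 1 and 3). The numbers do not pair WT with Pax5+/- mice in the labels, and the arrays were put together only by closeness within a group.

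**Figure D3:**
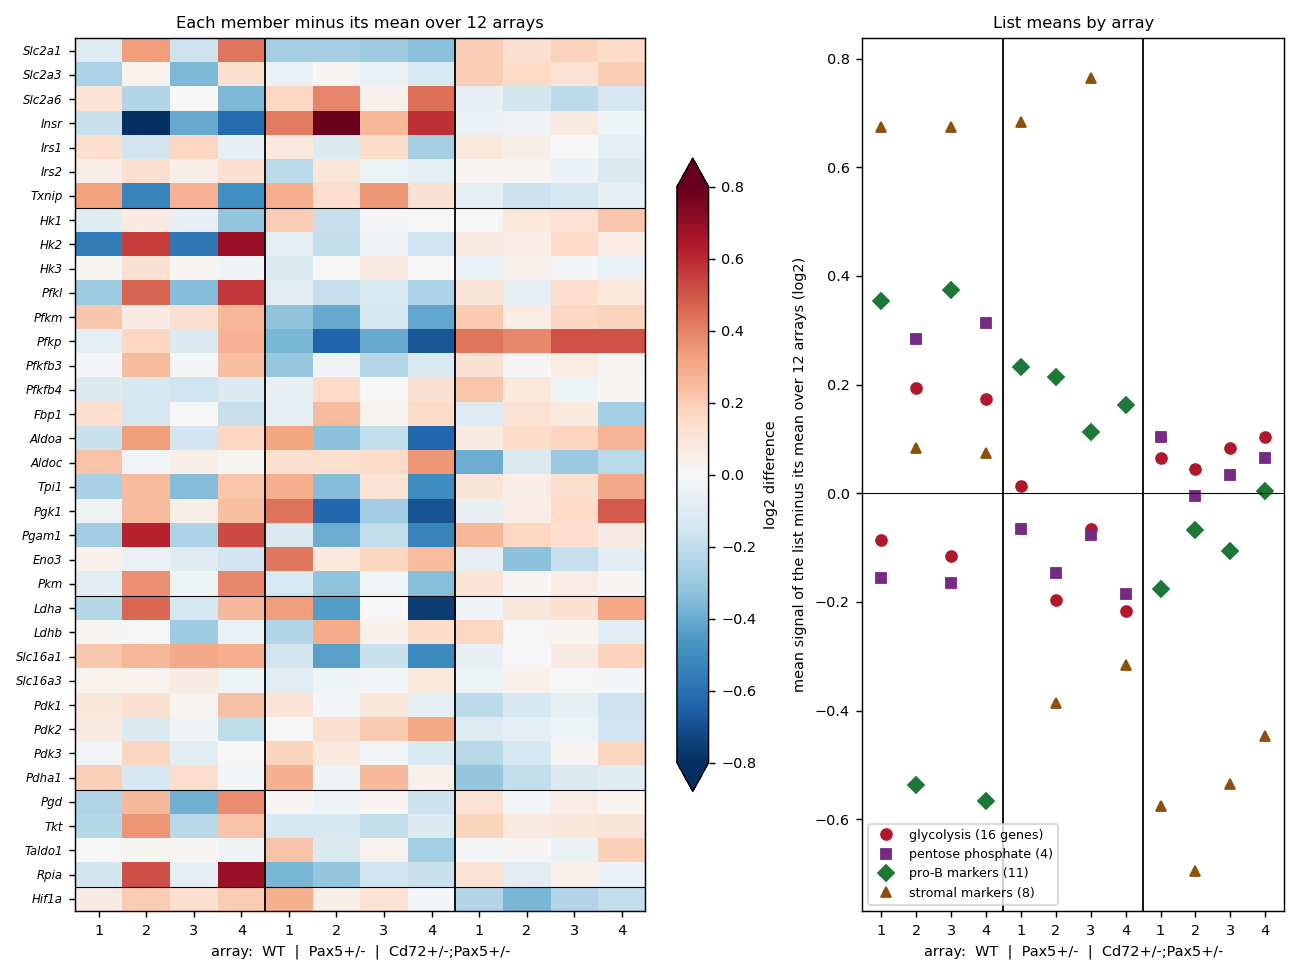
Left, each of the 36 genes (rows, by step) minus its own mean over the 12 arrays (columns), on a log2 colour scale that is cut at 0.8 in either direction; right, the mean of 4 gene lists on each array minus its mean over the 12 arrays (y axis, log2). WT arrays 2 and 4 stand above arrays 1 and 3 in the glycolysis mean (9.07 and 9.05 against 8.79 and 8.76) and the pentose phosphate mean (10.29 and 10.32 against 9.85 and 9.84), and below them in both marker means.

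Among 86 further genes of these pathways, 80 had a value. Of these, 4 were higher and 4 lower in Pax5+/- against WT (10.0%), 2 and 3 in Cd72+/-;Pax5+/- against WT (6.25%), and 4 and 6 in Cd72+/-;Pax5+/- against Pax5+/- (12.5%). Over all clusters 7.47%, 7.78% and 9.79% were called, so the further genes as a whole were called about as often as any cluster. Of 20 further regulators, Egln3, a prolyl hydroxylase that marks HIF proteins for destruction and is itself induced by HIF, had the largest change in Pax5+/- against WT. It read 5.66, 5.70, 5.73 and 5.54 in WT, 7.01, 6.92, 6.96 and 6.97 in Pax5+/-, and 5.85, 5.76, 5.67 and 5.72 in Cd72+/-;Pax5+/-. All Pax5+/- arrays stood far above all others. The change was 1.31 against WT (SE 0.0537, limma adjusted p 9.21e-09) and -1.22 between the mutants (limma adjusted p 1.46e-08), and both were kept with the close pairs averaged (0.00319 and 0.00351). Egln2, a related hydroxylase, was 0.21 higher in Pax5+/- than in WT (limma adjusted p 0.0467). Prkaa2, a catalytic subunit of the energy sensor AMPK, changed by -1.52 in Cd72+/-;Pax5+/- against WT and by -1.67 against Pax5+/- (limma adjusted p 0.0009 and 0.000334). It read 7.38, 8.35, 7.37 and 8.59 in WT, 8.02 to 8.13 in Pax5+/- and 6.37 to 6.45 in Cd72+/-;Pax5+/-. Its WT arrays thus split by the close pairs. Nr3c1, the glucocorticoid receptor, and Cnr2, a cannabinoid receptor, which are linked with TXNIP to PAX5 in human leukemia cells, were not called in any comparison.

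In the list of 18 further transport and insulin genes, Pik3cd, a catalytic subunit of PI3 kinase, changed by -0.54 in Pax5+/- against WT and by 0.68 between the mutants (limma adjusted p 0.00539 and 0.000817). Slc2a8, an intracellular transporter, was 0.29 higher in Pax5+/- than in WT. Igf1r, the receptor of insulin-like growth factor, changed by -0.40 and Pik3r1, a regulatory subunit of PI3 kinase, by -0.46 in Cd72+/-;Pax5+/- against Pax5+/-, and Akt2 by 0.22 against WT. Of 19 further glycolysis and glycogen genes, Ugp2, which makes UDP-glucose for glycogen, changed by -0.67 in Pax5+/- against WT and by 0.77 between the mutants (limma adjusted p 0.0012 and 0.000367). Pygb, a glycogen phosphorylase, changed by 0.20 and -0.19 in the same comparisons, and G6pc3, a glucose 6-phosphatase, by 0.48 between the mutants.

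Of 14 further lactate and pyruvate genes, Pck2, the mitochondrial enzyme that makes phosphoenolpyruvate, was 0.41 higher in Cd72+/-;Pax5+/- than in WT and 0.38 higher than in Pax5+/- (limma adjusted p 0.000835 and 0.00114). Pdp1, the phosphatase that turns pyruvate dehydrogenase on, changed by -0.40 between the mutants. Among 9 further pentose phosphate and ribose genes, both called genes were lower in each mutant than in WT. Rpe, which interconverts pentose phosphates, changed by -0.51 in Pax5+/- and -0.55 in Cd72+/-;Pax5+/- (limma adjusted p 0.0207 and 0.0141). Prps2, which makes the ribose donor PRPP, changed by -0.32 and -0.48 (limma adjusted p 0.0111 and 0.000666). None of the calls in these lists other than those of Egln3 was kept with the close pairs averaged.

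Of 12 targets of hypoxia factors outside glycolysis, 5 were called between the mutants, 4 lower and 1 higher (41.7%, where 9.79% of all clusters were called). Kdm3a, a histone demethylase, changed by -0.48, Car9, a carbonic anhydrase, by -0.28, P4ha1, a collagen prolyl hydroxylase, by -0.38 and Bnip3l, a mitophagy receptor, by -0.54. Car9 read only 5.87 to 6.37, below the median of every array. Vegfa, the angiogenic growth factor, was 0.64 higher in Cd72+/-;Pax5+/- than in Pax5+/-. Against WT, Kdm3a and Car9 were 0.32 and 0.27 higher in Pax5+/-, and P4ha1 and Ero1l (Ero1a on the platform), an oxidase of protein folding, changed by -0.43 and -0.33 in Cd72+/-;Pax5+/-. Of 15 cell-cycle genes, 3 were lower in Pax5+/- than in WT. They were Rrm2, a ribonucleotide reductase subunit, at -0.91 (limma adjusted p 1.49e-05), Top2a at -0.28 and Mcm4 at -0.22. Rrm2 was 0.81 higher in Cd72+/-;Pax5+/- than in Pax5+/-, and both Rrm2 calls were kept with the close pairs averaged (0.0456 and 0.0493). Mcm4 also changed by -0.20 in Cd72+/-;Pax5+/- against WT. The mean of the 15 genes was 11.01 to 11.1 in WT, 10.74 to 11.0 in Pax5+/- and 10.96 to 11.05 in Cd72+/-;Pax5+/-, with Pax5+/- arrays 2 and 4 (10.79 and 10.74) lowest, as they were for Ldha and Pgk1.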

How the data were processed

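RNA of purified pro-B cells was hybridised to 12 arrays, 4 per genotype. The authors deposited log2 signals for 28944 transcript clusters, between 3.67 and 14.73, and the medians of single arrays lay between 6.91 and 7.005. Per the series' design text, the Transcriptome Analysis Console was used. The labels and headers do not state a background correction, normalization or genome build. Of the clusters, 21789 carry 1 platform symbol, 1621 several and 5534 none.

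The 23410 clusters with a symbol were fitted with limma 3.58.1 in R 4.3.3 (a mean per genotype, empirical Bayes with 9 residual and 3.28 prior degrees of freedom), tested on simulated data first. Benjamini-Hochberg adjustment ran over all 23410, and an adjusted p under 0.05 was a call. SDs are over 4 arrays. The titles share no number between groups, so nothing was paired. The member genes and the other lists were chosen with earlier results of these data known. By rule, every array's value is printed for called members, others appear by range or count, and up to 4 called genes per further list are named. Values of Hk2, Hk1's further cluster, Pgam1, Ldha, Pgk1, Txnip, Rpia, Dntt, Cd93, Lyz2, Myc and Prkaa2 were added after being seen. Alternatives covered normalization, scaling, dim clusters (all groups' means under 6), prior, groups in the fit, array weights, threshold, cluster choice, close pairs and each array left out. Omission of arrays 2 and 4 and the cluster with a RefSeq mRNA were added after seeing the data. Figures used Python 3.11.15, pandas 2.3.3 and matplotlib 3.10.9.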

Additional observations from a re-analysis of the deposited data

Results flagged for a closer look

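In groups of 4 arrays, 3 values stood apart from the other arrays of their group by more than Dixon's 95% critical value for the gap as a share of the group's range. They came from 108 groups of values, and chance flags about 1 in 20. Insr read 8.53 on Cd72+/-;Pax5+/- array 3, where the other arrays of that group read 8.41 to 8.43. Hk2 read 8.92 on the same array, the others lying at 8.83 to 8.84. Aldoc read 6.89 on Pax5+/- array 4, against 6.67 to 6.69 on the others. Without Cd72+/-;Pax5+/- array 3, the Insr call against WT was lost and that against Pax5+/- kept. Without Pax5+/- array 4, the Aldoc call between the mutants was kept.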

How the results depend on the processing

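The counts of called members, 7, 5 and 11 for Pax5+/- to WT, the double mutant to WT, and the double mutant to Pax5+/-, stayed within 1.5 times under quantile normalization, a common median, the filter on dim clusters, all clusters, the trended prior, the mean of a gene's clusters and the cluster with a RefSeq mRNA. With dim clusters left out they were 8, 5 and 11 of 35, where 10.5%, 10.9% and 13.7% of the clusters kept were called. Under the other settings just named, 6.89% to 7.56%, 6.75% to 8.08% and 9.06% to 10.4% of the clusters tested were called. With only the compared groups in the fit the counts of members were 4, 6 and 19 (5.01%, 8.74% and 14.4% of all clusters). Array weights gave 4 in the first (7.58% of all clusters), and an adjusted p under 0.1 gave 11 there (9.96%). The close pairs averaged gave 0, 0 and 1 (1.2%, 1.24% and 1.79% of all clusters), and as a random block 4, 2 and 6 (4.84%, 4.4% and 5.97%). The threshold of an unadjusted p under 0.05 with over 2-fold gave 1, 0 and 0 (0.957%, 0.914% and 1.2% of all clusters). Without arrays 1 and 3 of WT and Pax5+/- the counts were 23, 14 and 22 (22.9%, 18.9% and 20.3% of all clusters). Without arrays 2 and 4 the second was 15 (20.4%). Leaving out 1 array gave 4 to 11, 1 to 5 and 6 to 12 (5.72% to 8.37%, 5.37% to 8.77% and 7.12% to 10.5% of all clusters). Apart from fits with fewer arrays or another threshold, where the construction moves the count, the cause was not tested. Every called member kept its direction under all settings that were run. Many of these settings could not reverse it, since they leave the log2 change as it is. They alter only the threshold, the prior, the clusters tested, the groups in the fit or the handling of pairs. No paired analysis was possible because the labels share no replicate number between groups. The 4 arrays per group, their close pairs and the unstated normalization limit all of these values.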
